A study of Homo sapiens with 6 samples.

Results

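The genes described here are 10 human genes for bile acid receptors and membrane transporters, taken by name from a table of 58735 genes. The receptors are *NR1H4*, *GPBAR1*, *VDR*, *NR1I2* and *S1PR2*, and the transporter genes are *SLC51A*, *SLC51B*, *ABCC2*, *ABCC3* and *ABCC4*. Each name matched 1 gene, all of them protein-coding. They were measured by sequencing of polyadenylated RNA in OE33, an established epithelial line from a human esophageal adenocarcinoma. One group of 3 libraries came from untreated cells (Control). The other 3 came from cells exposed to acidified bile salts (ABS), a bile salt cocktail at 200 µM in unsupplemented medium of pH 4.0, for 20 min, and harvested after 6 h of recovery in complete medium. Which bile salts the cocktail held is not given in the sources used here, and neither is whether Control cells were put through a change of medium. Acid, bile salts and the exposure medium therefore cannot be told apart in the contrast. All libraries came from the same line, so nothing here speaks to other tumours or to normal esophagus.

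Bile acids are detergents made from cholesterol in the liver, and cells meet them as signals as well as irritants. Nuclear receptors bind them inside the cell and act on transcription as partners of retinoid X receptors. The product of *NR1H4* (FXR) is the main bile acid receptor of liver and ileum, that of *NR1I2* (PXR) responds to many foreign compounds and some bile acids, and the vitamin D receptor encoded by *VDR* also binds the secondary bile acid lithocholic acid. At the cell surface, the product of *GPBAR1* (TGR5) raises cyclic AMP, and that of *S1PR2*, a receptor for sphingosine-1-phosphate, has been described as a receptor for conjugated bile acids. Bile acids leave cells through the organic solute transporter, which needs the products of *SLC51A* and *SLC51B* together, and through ATP-driven pumps of the ABCC family. The product of *ABCC2* sits in the apical membrane, that of *ABCC3* in the basolateral membrane, and that of *ABCC4* on either side depending on the cell. In reflux disease, bile acids reach the lower esophagus together with acid.

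Library totals lay between 22145676 and 25235686 counts, and 18127 to 19927 genes had a count in a library. A count of 0 in a library is taken to allow up to 3 counts, a one-sided limit, here 0.119 to 0.135 CPM (counts scaled to a common library size) of the library total before TMM scaling. Intervals are two-sided. Reads had no molecular identifiers, so this limit and all counting intervals take in counting error alone. Control 3 and ABS 3 were more like each other than like the rest of their groups. A chi-square per degree of freedom over gene counts was 5.36 between the 2 libraries numbered 3, 4.03 between Control 1 and 2, 4.10 between ABS 1 and 2, and 10.2 to 14.3 for every other pair. Results without these libraries are therefore also given for some genes, among them *VDR* and *ABCC2*. Values of other genes can change without them too. The 7 epithelial markers *EPCAM*, *CDH1*, *KRT8*, *KRT18*, *KRT19*, *KRT7* and *CLDN4* lay between 501 and 12205 CPM in every library. Of the markers of other cell types, *ALB*, *APOA1* and *TTR* (hepatocytes), *PTPRC*, *CD3E* and *MS4A1* (immune cells) and *COL1A2* and *DCN* (fibroblasts) had 0 counts in all libraries. The same lists held *CD14*, with 108 to 132 counts and 4.55 to 6.00 CPM per library, and *COL1A1*, with 62 to 83 counts and 2.59 to 3.63 CPM. Both were present in every library, and neither passed the edgeR threshold (adjusted p 0.882 and 0.958). Summed over 5 markers each, the immune list lay at 4.75 to 6.00 CPM in Control and 4.55 to 5.32 CPM after ABS, and the fibroblast list at 2.82 to 3.14 CPM and 2.59 to 4.02 CPM. Their part in the results was not tested. The 4 endothelial markers summed to at most 0.297 CPM in any library, and the 6 hepatocyte markers to at most 0.161 CPM.

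The 10 genes fell into 4 tiers of abundance in OE33 cells. *VDR*, *ABCC3* and *ABCC4* were clearly expressed, *S1PR2* and *ABCC2* were low, *SLC51A* and *GPBAR1* were near the limit of detection, and *NR1H4*, *NR1I2* and *SLC51B* had 0 counts in every library of both groups. To compare genes with each other, CPM after TMM scaling (edgeR's trimmed mean normalisation) was divided by the deposited gene length in kilobases. In Control cells *ABCC3* was at 9.38 ± 0.445 CPM per kilobase (mean ± SD, n = 3, as for all group values below) and *VDR* at 8.97 ± 0.309, and the ranges of these neighbours overlapped. *ABCC4* followed at 3.59 ± 0.174 and *S1PR2* at 1.38 ± 0.383 CPM per kilobase, each clear of its neighbours. *ABCC2* at 0.233 ± 0.104 and *SLC51A* at 0.0994 ± 0.0424 overlapped each other. *GPBAR1* came last among the genes with a count, at 0.0214 ± 0.024 CPM per kilobase. In ABS cells *VDR* was at 10.8 ± 0.981 and *ABCC3* at 9.51 ± 0.961 CPM per kilobase, so that the order of the leading pair was the other way round. Their ranges were only just apart, with the lowest *VDR* library at 10.18 and the highest *ABCC3* library at 10.13. The difference in order was not tested. The order of the other genes was as in Control cells, with *SLC51A* and *GPBAR1* overlapping. Set against all 13768 genes tested, the mean level per kilobase over 6 libraries was above that of 68.7% of genes for *VDR*, 67.6% for *ABCC3*, 45.9% for *ABCC4*, 26.5% for *S1PR2*, 9.32% for *ABCC2* and 1.30% for *SLC51A*.

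**Figure D1:**
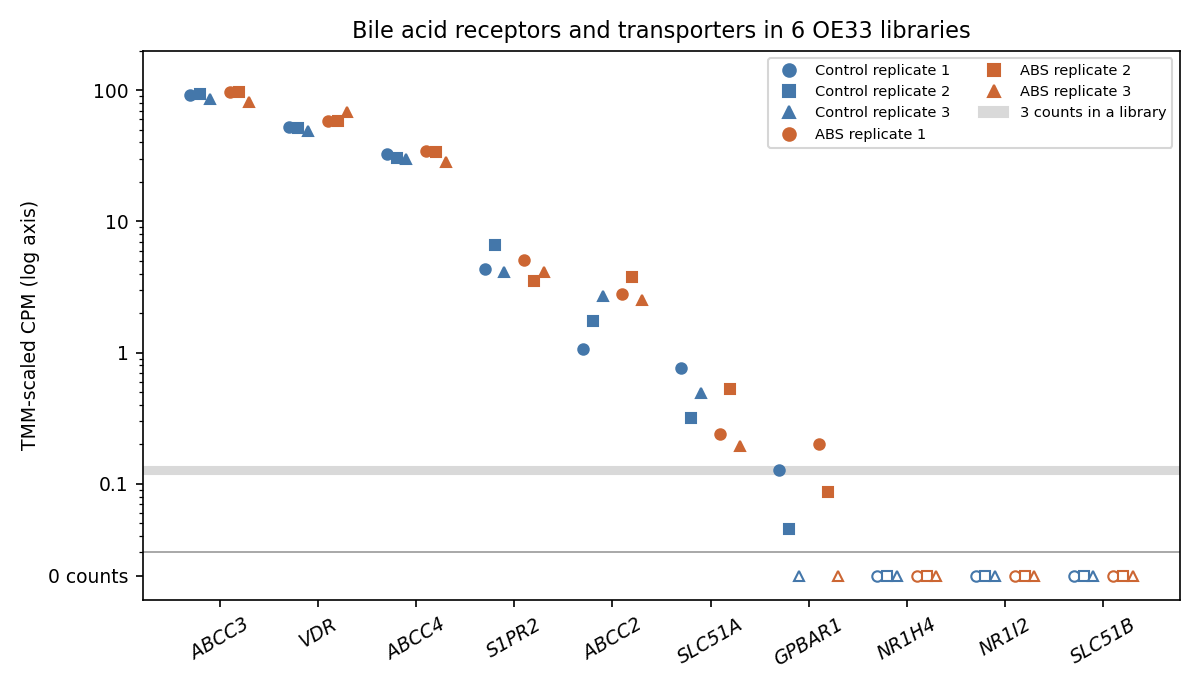
TMM-scaled CPM (log axis) of the 10 genes in each of the 6 libraries, with Control in blue, ABS in orange and a symbol for each replicate number. Open symbols on the lowest line are counts of 0, and the grey band marks 3 counts in a library (0.119 to 0.135 CPM). *VDR* is the gene whose 3 ABS points all lie above its 3 Control points.

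Of the 10 genes, 6 passed the filter on low counts and were tested for a change after ABS with edgeR's quasi-likelihood test, and 0 of the 6 passed the threshold of 0.05 on the p-value adjusted over all genes. Across all genes tested, 0.436% were called. By an unadjusted p under 0.05, 1 of the 6 was past the threshold (*VDR*), against 9.75% of all genes, and 0 of the 5 genes with an adjusted p in DESeq2 and 0 of the 6 in limma-voom were called (1.81% and 0.450% of all genes). The ABS values lay wholly above the Control values for 1 of the 6 (*VDR*), which was the case for 7.57% of all genes, and wholly below for 0 of the 6 (6.95% of all genes). The median log2 fold change of the 6 was 0.04, against −0.004 for all genes, and 4 of the 6 were positive.

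*VDR* (ENSG00000111424, GRCh38 chromosome 12, 47841537 to 47943048, minus strand) had the highest level of the 5 receptors. It lay at 52.1, 51.7 and 48.9 CPM in Control libraries 1, 2 and 3, from counts of 1227, 1137 and 1183. In ABS libraries 1, 2 and 3 it lay at 58.4, 57.8 and 67.7 CPM, from counts of 1449, 1323 and 1727. Every ABS library was above every Control library, and ABS 3 was the highest. The group means were 50.9 ± 1.75 CPM in Control and 61.3 ± 5.57 CPM after ABS. The log2 fold change was 0.27 ± 0.09 (standard error, SE), a 1.20-fold difference with a 95% interval of 1.06 to 1.37, with an edgeR p of 0.00922 and an adjusted p of 0.263. Between libraries of the same number the log2 difference was 0.16 for the libraries numbered 1, 0.16 for those numbered 2 and 0.47 for those numbered 3. Within replicates 1 and 2 alone the edgeR log2 fold change was 0.16 with an adjusted p of 0.209. Over the 14 alternative analyses the log2 fold change stayed between 0.16 and 0.31, and the adjusted p between 0.0741 and 0.678.

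*S1PR2* (ENSG00000267534, chromosome 19, 10221433 to 10231331, minus strand) was detected in every library at low level. Control libraries 1, 2 and 3 had 4.37, 6.64 and 4.09 CPM (counts of 103, 146 and 99). ABS libraries 1, 2 and 3 had 5.08, 3.49 and 4.12 CPM (counts of 126, 80 and 105). The groups overlapped, with Control 2 the highest library and ABS 2 the lowest. The log2 fold change was −0.25 ± 0.24 (SE), with a 95% interval of −0.77 to 0.27 and an edgeR adjusted p of 0.813. Leaving out single libraries moved it between −0.40 (without ABS 1) and 0.00 (without Control 2). In the annotation 83 of the 3643 exonic bases of *S1PR2* also lie in exons of *DNMT1*, an abundant gene on the same strand with 24456 counts over the 6 libraries. How reads in shared bases were counted is not given in the sources used here.

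*GPBAR1* (ENSG00000179921, chromosome 2, 218259496 to 218263859, plus strand) had 3, 1 and 0 counts in Control libraries 1, 2 and 3. It had 5, 2 and 0 counts in ABS libraries 1, 2 and 3. The Control libraries thus held 4 counts in all and the ABS libraries 7, a ratio of 1.67 after scaling with an exact binomial 95% interval of 0.424 to 7.77. A change within these bounds was not detectable at this depth. Both libraries numbered 3 had no count. The highest library, ABS 1, was at 0.202 CPM with an exact Poisson interval of 0.0654 to 0.47.

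*NR1H4* (ENSG00000012504, chromosome 12, 100473708 to 100564413) and *NR1I2* (ENSG00000144852, chromosome 3, 119780484 to 119818485) had 0 counts in all 6 libraries. Given the 3 counts that a count of 0 allows, the limit in the shallowest library was 0.0373 CPM per kilobase for *NR1H4* and 0.0252 for *NR1I2*. These limits lie far under the level of *VDR*, the third nuclear receptor of the group, in every library. No fold change can be given for either gene.

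Of the transporters, *ABCC3* (ENSG00000108846, chromosome 17, 50634777 to 50692252, plus strand) was the most abundant. It lay at 91.4, 93.8 and 85.5 CPM in Control libraries 1, 2 and 3, and at 96.2, 97.4 and 80.8 CPM in ABS libraries 1, 2 and 3. The groups overlapped, and within each group the library numbered 3 was the lowest. The means were 90.2 ± 4.28 CPM in Control and 91.5 ± 9.24 CPM after ABS. On the log2 scale they differed by 0.02 ± 0.09 (SE; edgeR adjusted p 0.97), a 95% interval of 0.89-fold to 1.16-fold.

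*ABCC4* (ENSG00000125257, chromosome 13, 95019829 to 95301475, minus strand) lay at 32.7, 30.6 and 29.8 CPM in Control libraries 1, 2 and 3. In ABS libraries 1, 2 and 3 it lay at 34.6, 33.8 and 28.3 CPM. ABS 1 and 2 were above all Control libraries and ABS 3 was below them. It differed by 0.06 ± 0.10 (SE) on the log2 scale (edgeR adjusted p 0.923), and the 95% interval ran from 0.89-fold to 1.21-fold. *ABCC3* and *ABCC4* therefore had the tightest bounds on a change among the transporters.

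*ABCC2* (ENSG00000023839, chromosome 10, 99782640 to 99852594, plus strand), the apical pump, had the largest positive estimate of the 6 tested genes and the widest interval after *SLC51A*. Its counts were 25, 38 and 65 in Control libraries 1, 2 and 3 and 69, 86 and 64 in ABS libraries 1, 2 and 3. In CPM this was 1.06, 1.73 and 2.69 in Control and 2.78, 3.76 and 2.51 after ABS. ABS 1 and 2 lay above all Control libraries, while ABS 3 lay just under Control 3. The log2 fold change was 0.72 ± 0.35 (SE), or 1.65-fold with a 95% interval of 0.974 to 2.78, with an edgeR p of 0.0609 and an adjusted p of 0.549. The log2 difference was 1.39 between the libraries numbered 1, 1.12 between those numbered 2 and −0.10 between those numbered 3. Within replicates 1 and 2 alone *ABCC2* passed, with a log2 fold change of 1.23 and an edgeR adjusted p of 0.0314, in a fit that called 13.2% of all genes. Without Control 3 the log2 fold change was 1.11 with an adjusted p of 0.151, and without Control 1 it was 0.44 with an adjusted p of 0.896. The difference between the replicate sets was not tested.

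*SLC51A* (ENSG00000163959, chromosome 3, 196211487 to 196243178, plus strand) and *SLC51B* (ENSG00000186198, chromosome 15, 65045370 to 65053396, plus strand) encode the 2 subunits of a single transporter. *SLC51A* had 18, 7 and 12 counts in Control libraries 1, 2 and 3 and 6, 12 and 5 counts in ABS libraries 1, 2 and 3. The groups overlapped, and the log2 difference of −0.73 ± 0.59 (SE) had a 95% interval of −2.02 to 0.57 (edgeR adjusted p 0.767). The log2 difference was −1.66 between the libraries numbered 1, 0.72 between those numbered 2 and −1.34 between those numbered 3, so the pairs did not share a direction. Leaving out single libraries moved the estimate between −1.25 (without ABS 2) and −0.36 (without Control 1), and it was −0.46 without ABS 3. *SLC51B* had 0 counts in all 6 libraries. Because its gene model is short, at 940 bases, the limit of 3 counts in the shallowest library alone is 0.144 CPM per kilobase. With 3 counts allowed over a whole set of libraries, it is 0.0460 over Control, 0.0434 over ABS and 0.0223 over all 6. On the same scale, summed counts over summed library totals, *SLC51A* lay at 0.101 in Control (exact Poisson 95% interval 0.0709 to 0.139), 0.0592 after ABS (0.0375 to 0.0888) and 0.0793 over all 6 (0.0605 to 0.102). The limit of *SLC51B* was thus under the interval of *SLC51A* in Control and over all libraries, and inside it in ABS, by counting error alone. In the annotation 389 of the 5293 exonic bases of *SLC51A* also lie in exons of *PCYT1A* on the opposite strand, a gene with 9453 counts over the 6 libraries. The strand setting of the counting is not given in the sources used here, so the few reads of *SLC51A* cannot be told apart from reads of *PCYT1A*.

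**Figure D2:**
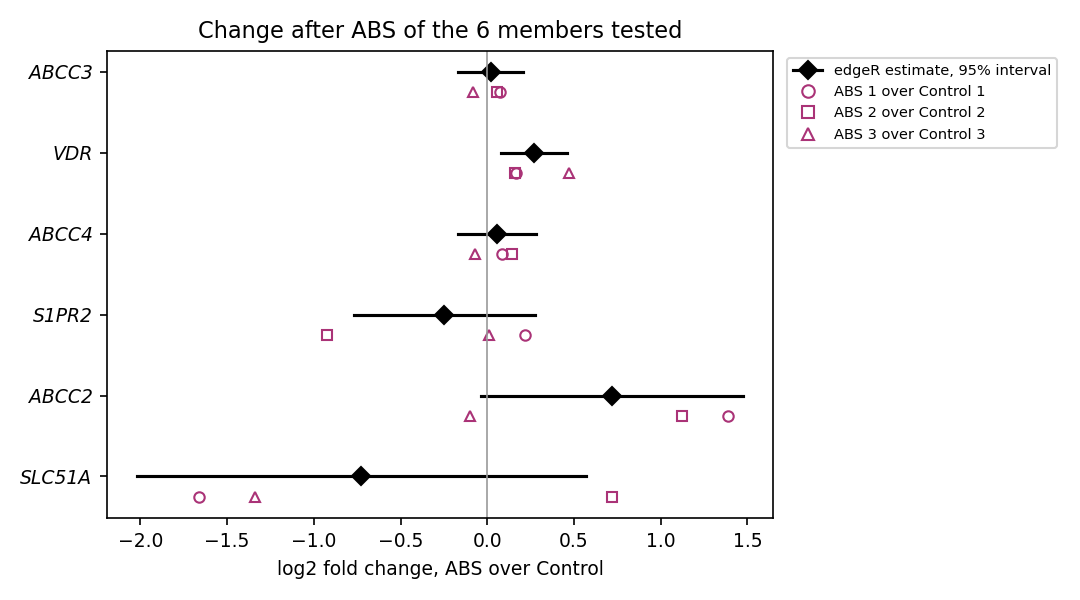
Log2 fold change, ABS over Control, of the 6 genes tested, ordered by level. Diamonds are edgeR estimates with 95% intervals over 3 libraries per group, and open symbols below them are the differences between libraries of the same number. The interval of *VDR* lies above 0 (1.06-fold to 1.37-fold) although its adjusted p is 0.263, and the intervals widen from *ABCC3* to *SLC51A* as counts fall.

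The set of RefSeq start sites used here (GRCh38.p14), with the bases around each, held 8 of the 10 genes. *VDR* and *ABCC3*, which had the highest levels per kilobase of the 10, had no entry in that set. The top of the range of levels is therefore missing from what follows. In the 250 bases before the start, the CpG dinucleotide, whose density marks many promoters that are active across tissues, occurred 42 times for *ABCC4* and 27 times for *S1PR2*. It occurred 8 times for *SLC51A*, 4 times each for *NR1I2* and *SLC51B*, 2 times for *NR1H4*, 1 time for *ABCC2* and 0 times for *GPBAR1*. The start used lay 29652 bases downstream of the annotated gene start for *NR1H4*, 5047 for *SLC51A* and 1617 for *NR1I2*. For the other genes matched it lay within 24 bases of the annotated gene start. Windows at other starts of these genes are not described here. Among protein-coding genes with such a sequence, the median was 21 CpG (middle 50% 14 to 28) for 9412 genes tested here and 5 (2 to 14) for 3172 genes with no count in any library. *ABCC4* was above the middle 50% of tested genes, *S1PR2* was within it, and the other 6 were below it. Among those 6 the number of CpG did not order the genes by level: *ABCC2* and *GPBAR1*, with the fewest, had counts, and *NR1H4*, *NR1I2* and *SLC51B* had none. The sequences of 4 genes are shown, 2 with many CpG (*ABCC4*, clearly expressed, and *S1PR2*, low) and 2 with few (*ABCC2*, low, and *NR1H4*, with 0 counts). They run 5′ to 3′ on the gene's strand and end at the base before the start, and capitals mark each CpG. *ABCC4* is at chr13:95301452-95301701 (minus strand), *S1PR2* at chr19:10231332-10231581 (minus strand), *ABCC2* at chr10:99782390-99782639 (plus strand) and *NR1H4* at chr12:100503110-100503359 (plus strand).
*ABCC4*: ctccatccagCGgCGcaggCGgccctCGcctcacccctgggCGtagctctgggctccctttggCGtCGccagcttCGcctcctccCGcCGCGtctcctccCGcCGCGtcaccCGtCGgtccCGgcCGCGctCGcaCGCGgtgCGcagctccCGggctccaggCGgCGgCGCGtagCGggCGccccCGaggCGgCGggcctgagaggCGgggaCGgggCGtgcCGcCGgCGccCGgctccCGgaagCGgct
*S1PR2*: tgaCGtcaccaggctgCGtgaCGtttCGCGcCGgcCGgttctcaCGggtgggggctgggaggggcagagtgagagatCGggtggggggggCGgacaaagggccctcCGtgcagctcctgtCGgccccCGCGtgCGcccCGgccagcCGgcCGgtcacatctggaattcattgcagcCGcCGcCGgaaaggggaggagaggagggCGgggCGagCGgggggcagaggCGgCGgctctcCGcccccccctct
*ABCC2*: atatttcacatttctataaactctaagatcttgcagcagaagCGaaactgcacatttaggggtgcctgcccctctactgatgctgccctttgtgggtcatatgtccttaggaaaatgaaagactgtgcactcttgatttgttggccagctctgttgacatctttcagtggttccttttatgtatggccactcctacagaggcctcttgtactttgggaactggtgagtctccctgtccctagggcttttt
*NR1H4*: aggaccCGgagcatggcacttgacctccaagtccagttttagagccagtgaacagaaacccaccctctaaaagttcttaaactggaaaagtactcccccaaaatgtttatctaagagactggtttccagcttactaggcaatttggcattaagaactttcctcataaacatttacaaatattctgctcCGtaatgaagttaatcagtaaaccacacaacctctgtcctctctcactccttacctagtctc

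The 8 windows were also searched on both strands for AGGTCA, the core that many nuclear receptors bind. It occurred 1 time each in the windows of *NR1H4* and *SLC51B* and in none of the other 6, against 12.1% of all 27305 RefSeq windows of this length. Among protein-coding genes the share of windows with a match was 10%. It was 8.35% for those tested here and 14% for those with no count in any library. A match or its absence describes the letters only, and bases farther from the start were not searched.

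**Figure D3:**
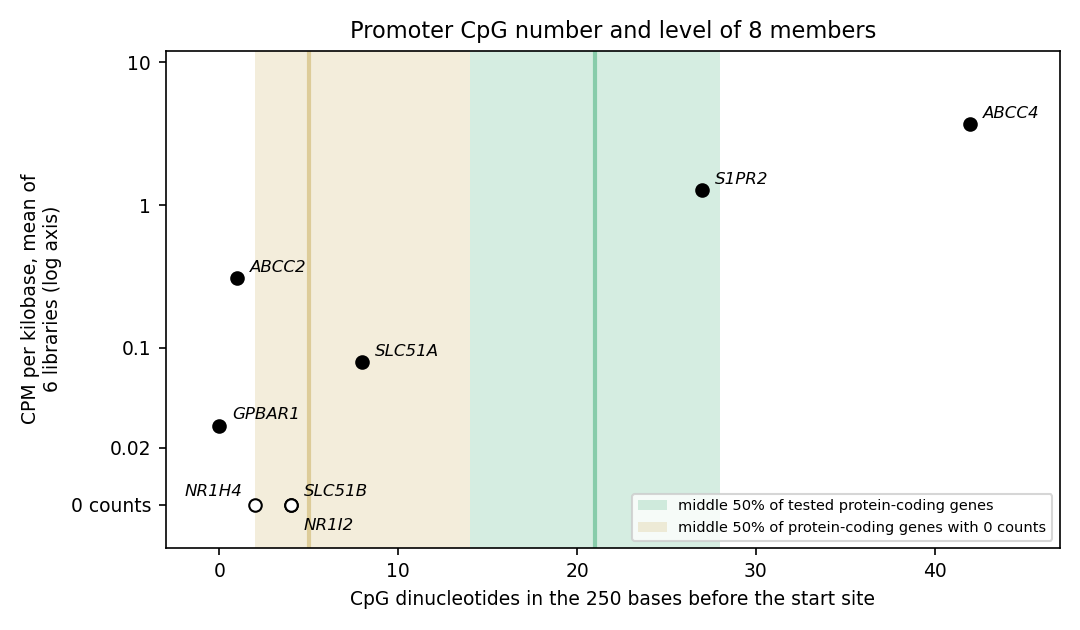
Number of CpG dinucleotides in the 250 bases before the RefSeq start site against the mean CPM per kilobase over 6 libraries (log axis, with counts of 0 on a line of their own) for the 8 genes matched. Shaded bands give the middle 50%, and lines the median, of tested protein-coding genes (21 CpG) and of protein-coding genes without a count (5 CpG). *ABCC4* and *S1PR2* lie far to the right of the other 6.

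The rest of the bile acid machinery was described through 7 further lists of 89 genes in all, of which 47 were tested, 24 had a few counts under the filter and 18 had 0 counts in every library. Of the 47 tested genes, 0 passed the edgeR threshold, and 0 passed with DESeq2 or limma-voom. With edgeR 4 of the 47 had an unadjusted p under 0.05 (*ABCG2*, *CDX2*, *SDC1* and *SGPP1*), against 9.75% of all genes. The values below were given by the same fit over all genes.

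Of 16 other transporters of bile acids and phospholipids, 7 were tested, with a median log2 fold change of 0.05. The uptake carriers *SLC10A1* and *SLC10A2* had 6 and 2 counts over all libraries, and *SLCO1A2*, *ABCB1* and *ABCG5* had 0. The highest per length were *SLCO4A1*, an organic anion carrier, *ABCG2*, an efflux pump, and *ATP8B1*, a phospholipid flippase. *ABCG2* lay at 52.5 ± 6.23 CPM in Control and 67.5 ± 8.43 CPM after ABS, a log2 fold change of 0.36 ± 0.11 (SE) with an edgeR adjusted p of 0.22. Its ABS values lay wholly above its Control values, as did those of 7.57% of all genes. *ABCG2* passed in the edgeR fit within replicates 1 and 2 alone (adjusted p 0.00286), which called 13.2% of all genes. It also passed in edgeR with an added term for the replicate 3 libraries (adjusted p 0.00957, with 3.38% called) and without a filter (0.0141, with 1.64% called). *SLCO4A1* (−0.10, adjusted p 0.718) and *ATP8B1* (0.11, adjusted p 0.706) did not pass. In the 6 other ABCC genes of the multidrug resistance type, 4 were tested with a median of −0.14. *ABCC1*, a basolateral efflux pump at 248 ± 8.26 CPM in Control and 249 ± 6.41 CPM after ABS, was more abundant per length than any of the 10 genes. *ABCC10* (−0.22) and *ABCC5* (−0.16) had adjusted p of 0.564 and 0.758, and *ABCC12* had 0 counts.

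Of 10 receptor partners and related sensors, 6 were tested, with a median log2 fold change of −0.0030. *RXRA*, the retinoid X receptor that pairs with *VDR* and the other nuclear receptors, lay at 105 ± 7.21 CPM in Control and 115 ± 4.83 CPM after ABS (log2 fold change 0.13, adjusted p 0.624). The coactivator *NCOA3* (0.10, adjusted p 0.731) and another retinoid X receptor, *RXRB* (0.02, adjusted p 0.982) were the other genes named as highest per length. *RXRG* and the muscarinic receptors *CHRM2* and *CHRM3* had 0 counts, and *NR1I3*, the constitutive androstane receptor, had 9 over all libraries.

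Of 18 target genes of FXR, VDR and PXR, 7 were tested, with a median of −0.04. *NR0B2* and *FGF19*, the classical FXR targets of liver and ileum, had 6 and 4 counts over all libraries, and *CYP3A4*, a PXR target, had 0, as had *CAMP*, *SULT2A1*, *KNG1* and *ABCB1*. *CYP24A1*, the vitamin D hydroxylase and a target of the vitamin D receptor, was abundant, at 78.7 ± 2.07 CPM in Control and 76.6 ± 2.07 CPM after ABS. The log2 difference was −0.04 ± 0.07 (SE), its 95% interval ran from −0.19 to 0.12 and its edgeR adjusted p was 0.924. *SDC1*, a heparan sulfate proteoglycan, was at −0.17 on the log2 scale (adjusted p 0.382), and *CYP3A5* was at 0.08 (adjusted p 0.877). The ABS values of *SDC1* lay wholly below its Control values, as did those of 6.95% of all genes.

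Of 14 genes that act beside *GPBAR1* and *S1PR2*, 10 were tested, with a median of −0.11. *GNAS*, the G protein subunit that stimulates adenylyl cyclase, lay at 1146 ± 46.4 CPM in Control and 1117 ± 125 CPM after ABS (adjusted p 0.94). *SGPL1*, the sphingosine-1-phosphate lyase (0.02, adjusted p 0.968), and *SGPP1*, a phosphatase of the same lipid (−0.25, adjusted p 0.409), came next per length. *NOX5*, an NADPH oxidase, had 2 counts over all libraries, and *S1PR3* had 0. Of 20 genes for bile acid synthesis, conjugation and detoxification, 9 were tested with a median of 0.05, and the highest per length were *EPHX1* (−0.07), *SLC27A2* (0.05) and *HSD17B4* (0.10), with adjusted p of 0.731 to 0.928. *CYP7A1*, the rate-limiting enzyme of the classical pathway, had 1 count over all libraries, and *CYP7B1*, *CYP46A1*, *AKR1D1*, *AKR1C4*, *UGT2B4* and *SULT2A1* had 0.

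Of 10 liver and intestine regulators of bile acid genes, 6 were tested, with a median of 0.15. *CDX2*, an intestinal homeobox factor, lay at 21.0 ± 6.31 CPM in Control and 28.6 ± 1.32 CPM after ABS (log2 fold change 0.45, adjusted p 0.414). Control 3 was the lowest library at 13.9 CPM, and the log2 difference was 0.18 between the libraries numbered 1, 0.24 between those numbered 2 and 1.06 between those numbered 3. Without Control 3 the log2 fold change of *CDX2* was 0.22 (edgeR adjusted p 0.389), within replicates 1 and 2 alone 0.21 (0.219), and without a filter 0.45 (0.0183; 1.64% of all genes called). *GATA6* (0.22) and *FGFR4* (−0.11) had adjusted p of 0.572 and 0.86. *CDX1* had 0 counts, and *HNF4A* had 19 over all libraries.

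**Figure D4:**
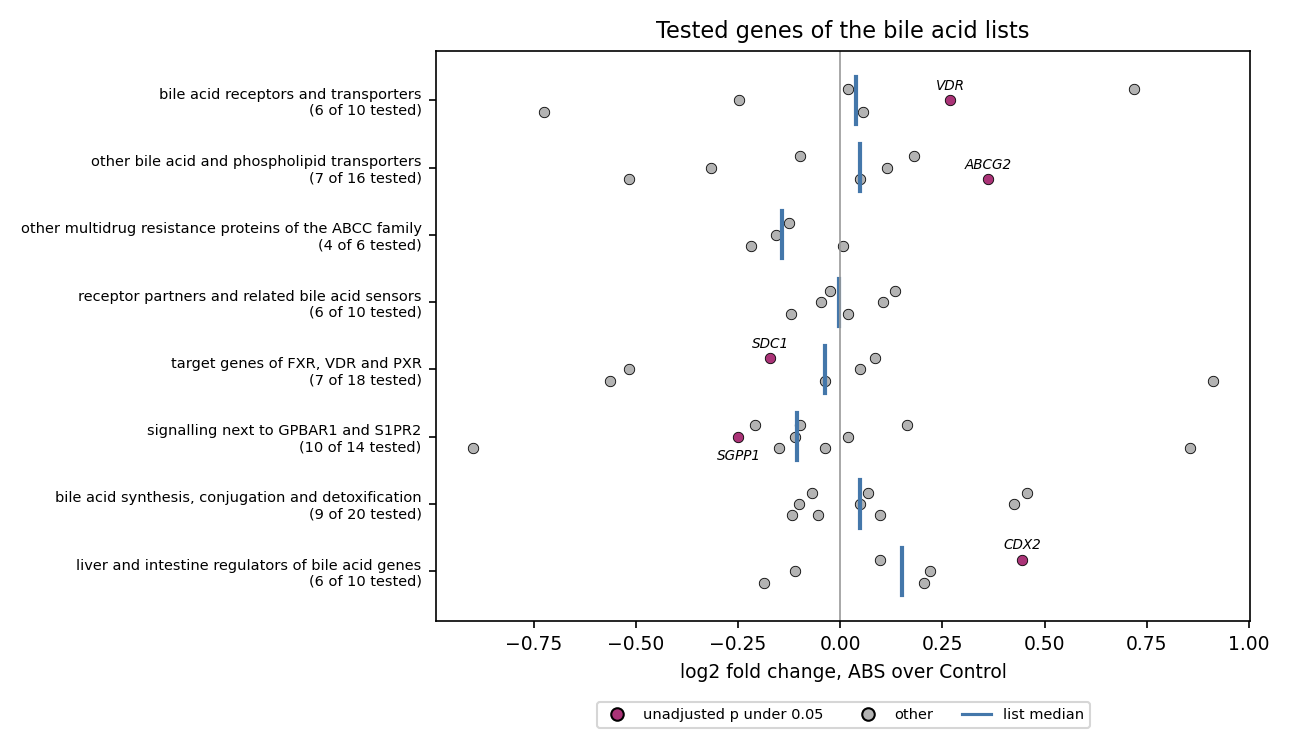
Log2 fold change, ABS over Control, of each tested gene in the lists, with 1 line per list, the list median as a blue bar and genes with an unadjusted p under 0.05 filled and named. None of the genes shown passed the adjusted threshold, and the list medians lie between −0.14 and 0.15. Some genes stand in 2 lists.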

How the data were processed

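RNA was measured in 3 Control and 3 ABS libraries. The deposited values are raw read counts, 1 column per library, and per the submitters' processing notes the tools were HISAT2 2.0.5 and featureCounts 1.5.0-p3 with GRCh38. The annotation release, strand setting and rule for multi-mapped reads are not given in the sources used here. All 58735 gene identifiers had identical coordinates in GENCODE release 29. The deposited gene length, whose derivation is not given in the sources used here, was used for levels per kilobase.

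Counts were tested over all genes with edgeR 4.0.16 in R 4.3.3: filterByExpr (minimum count 10, minimum total 15), TMM scaling, a quasi-likelihood F-test with group as the only term, and Benjamini-Hochberg adjustment over 13768 genes at 0.05. The SE is the log2 fold change divided by the square root of F. The procedure was also run on simulated data, with an outcome not given here. The simulated libraries were drawn independently and did not hold the likeness of Control 3 and ABS 3. DESeq2 1.42.0, limma 3.58.1, other scalings, no filter, a replicate block, a term for the replicate 3 libraries, replicates 1 and 2 alone and leaving out each library were alternatives. The labels call the replicates independent. The members, lists and alternatives were chosen with earlier results of these data known. The rule for naming genes took all 10 members and, from each further list, called genes, the 3 highest per length and those with no count. *ABCB11*, *NR4A1*, *KLB*, *ABCC11* and genes with few counts were named after their values were seen. Some genes of these lists are not reported here and are in none of the lists' counts.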

Additional observations from a re-analysis of the deposited data

How the results depend on the processing

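The number of genes called over the whole table was 60. DESeq2 gave 233, a fit without a filter 409, scaling by library size alone 35, and the count was 350 with a replicate block, 465 with a term for the replicate 3 libraries, 1813 within replicates 1 and 2 and 12 to 438 when single libraries were left out. Of the 10 genes, 0 were called in 13 of 14 alternatives, and within replicates 1 and 2 alone 1 was called (*ABCC2*, log2 fold change 1.23). Of the 89 further genes, 2 were called without a filter (*ABCG2*, *CDX2*), 1 with a replicate block (*ABCG2*), 1 with the replicate 3 term (*ABCG2*), 4 within replicates 1 and 2 (*ABCG2*, *NR4A1*, *SDC1*, *SLCO4A1*) and 0 to 1 when single libraries were left out (*NR4A1*, without Control 3). Over all genes, the share called was 1.64% without a filter, 3.38% with the replicate 3 term and 13.2% within replicates 1 and 2. The cause of the differences between the fits was not tested.

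The replicate numbers were not taken as pairs, since the series states no pairing. Deviations of same-numbered libraries from their group means correlated at 0.04, 0.03 and 0.17. The main fit holds no term for the likeness of Control 3 and ABS 3. Of the 6 libraries, 4 correlated best with the library of their own number, among them Control 3 and ABS 3. Control 1 and ABS 2 correlated at 0.093, above the same-numbered values for numbers 1 and 2. No pairing by number is read from these values. The replicate block moved the count of calls from 60 to 350. Between the replicate 3 libraries alone, with no test, the log2 difference was 0.47 for *VDR*, −0.10 for *ABCC2*, −0.081 for *ABCC3* and −0.072 for *ABCC4*.

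Several estimates changed direction, none of them past the threshold. When single libraries were left out the log2 fold change ran from −0.40 to 0.00054 for *S1PR2*, −0.028 to 0.10 for *ABCC3*, −0.064 to 0.16 for *RXRB*, −0.018 to 0.030 for *ABCC1*, −0.027 to 0.069 for *SGPL1*, −0.066 to 0.24 for *ABCB11*, −0.13 to 0.013 for *GNAS* and −0.0075 to 0.14 for *CYP3A5*. It was −0.0050 for *ABCC1* with library size alone and −0.047 for *CYP3A5* within replicates 1 and 2. Without division by length *ABCC3* ranked 1 and *VDR* 2 over the 6 libraries, the reverse of the order per length. Depth limits *GPBAR1*, *SLC51A* and the genes with 0 counts most.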

Other observations

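*ABCB11*, which encodes the bile salt export pump of hepatocytes and is a classical FXR target, was present although *NR1H4* had 0 counts. It had 202, 170 and 280 counts in Control libraries 1, 2 and 3 and 260, 212 and 233 in ABS libraries 1, 2 and 3. This was 9.29 ± 2.02 CPM in Control and 9.63 ± 0.742 CPM after ABS (mean ± SD, n = 3), with a log2 fold change of 0.05 ± 0.17 (SE) and an edgeR adjusted p of 0.962. Its mean over 6 libraries, 1.23 CPM per kilobase, was close to the 1.27 of *S1PR2*. None of its exonic bases lies in an exon of another gene in GENCODE 29. Of the 6 hepatocyte markers, *ALB*, *APOA1*, *TTR* and *CYP3A4* had 0 counts, while *SLC10A1* had 6 and *CYP7A1* had 1 over all libraries. The source of the *ABCB11* reads was not tested.

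*KLB*, which encodes a coreceptor for FGF19, had 1, 1 and 3 counts in Control libraries 1, 2 and 3 and 8, 8 and 4 in ABS libraries 1, 2 and 3. These sums of 5 and 20 counts gave a ratio of 3.81 after scaling, with an exact binomial 95% interval of 1.39 to 12.99. The interval covers counting error only. *KLB* was under the filter, and the edgeR fit without a filter gave it an adjusted p of 0.766. *ABCC11*, an apical ABCC pump, went the other way in counts, with 37 in the Control libraries and 17 in the ABS libraries. It was called in 0 of the 7 alternative fits that held it. *NR4A1*, an immediate-early gene that cyclic AMP can induce, had 35, 14 and 106 counts in Control libraries 1, 2 and 3 and 98, 79 and 114 in ABS libraries 1, 2 and 3. Control 3 was thus within the range of the ABS libraries, as it was for *ABCC2*. The log2 fold change of *NR4A1* was 0.86 with an edgeR adjusted p of 0.621, and 1.88 with an adjusted p of 0.0142 without Control 3. The share of all genes called without Control 3 is not given here. All genes in this paragraph were picked after their values were seen.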
